A study of Homo sapiens with 6 samples.

Results

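The Hedgehog receptors, their ciliary and extracellular partners, the inhibitor SUFU and the GLI transcription factors were followed in DU145 cells after RNA interference against RCC2. The set holds 9 genes of the 50868 in each deposited count table, picked by gene name: the receptor PTCH1, the signal transducer SMO, the decoy receptor HHIP, the ligand exporter DISP1, the ciliary receptor GPR161, SUFU, and GLI1, GLI2 and GLI3. Of these, 8 passed the filter on low counts and were tested, and HHIP did not. DU145 is a human prostate cancer line that grows without androgen. The siRCC2 group had 3 libraries from cells given an siRNA against RCC2, labelled RCC2 knockdown, and the siCtrl group had 3 libraries from cells given a control siRNA, labelled RCC2 wild type. All 6 libraries came from that 1 cell line. The series title asks whether RCC2 acts on prostate cancer cells through GLI1.

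In the canonical pathway a Hedgehog ligand, released from its source cell by DISP1, binds PTCH1 and lifts the hold of PTCH1 on SMO at the primary cilium. SMO then counters SUFU and the kinases that turn GLI2 and GLI3 into repressors, while GPR161 keeps cyclic AMP, and with it those kinases, high when no ligand is present. GLI1 acts only as an activator and is itself, with PTCH1 and HHIP, a classic target gene, so these 3 transcripts are the usual readouts of pathway output.

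After RCC2 siRNA, SUFU, GPR161, DISP1, GLI1 and GLI3 fell to between 0.333 and 0.485 of their siCtrl level, SMO was 1.24-fold higher, and PTCH1 and GLI2 did not pass the test. Thus 5 of 8 tested members were lower, against 21.1% of all tested genes, and 1 was higher, against 20.7%, at an adjusted p under 0.05 (edgeR quasi-likelihood test, Benjamini-Hochberg over 16536 genes). In either direction 41.8% of all tested genes passed. At an adjusted p under 0.01 the same 5 members were lower, against 12.4% of tested genes, and 0 were higher, against 12.5%. The median log2 fold change, siRCC2 over siCtrl, was -1.07 over the 8 tested members and -0.02 over all tested genes. The libraries of the 2 groups did not overlap in 5 members that were lower and 1 that was higher in siRCC2, where 28.5% and 26.9% of tested genes were so separated.

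Total counts ran from 17377191 to 19895431 per library, and levels are given as counts scaled to library size (CPM). RCC2 itself had 980, 1117 and 1045 counts in siRCC2 replicates 1 to 3, against 3998, 3598 and 3702 in siCtrl replicates 1 to 3. This is a log2 fold change of -1.76 with an SE of 0.07 (edgeR adjusted p = 2.00e-05). Epithelial keratins were abundant, with KRT8 at 12693 to 14018 counts in siRCC2 and 8479 to 9346 in siCtrl, and KLK2 and CD3E had no counts. The leukocyte gene PTPRC had at most 1 count, the endothelial genes PECAM1 and VWF at most 11, and the fibroblast gene DCN at most 6. Not all leukocyte genes were near 0. Over 3 of them the summed level was 16.0 to 23.3 CPM in siRCC2 and 15.1 to 18.1 CPM in siCtrl. Nearly all of it came from 1 gene with up to 385 counts. Over 4 fibroblast genes, of which COL1A1 fell (-0.44 ± 0.15 SE), the summed level was 9.86 to 13.002 CPM in siRCC2 and 13.2 to 15.5 CPM in siCtrl. Markers of the line moved too: of 6 epithelial genes 3 were higher and 2 lower in siRCC2, and their summed level was 3062 to 3667 CPM in siRCC2 and 4764 to 4997 CPM in siCtrl. The lower sum came from the most abundant of the 6, at 1636 ± 203 CPM in siRCC2 and 3588 ± 116 CPM in siCtrl (SD). It thus shows no general fall of epithelial genes. Of 3 neuroendocrine genes SYP fell by 1.71 on the log2 scale, ENO2 did not pass and CHGA had at most 6 counts. What part these shifts have in the Hedgehog values was not tested. In bulk RNA, fewer cells of a kind and less RNA per cell cannot be told apart. siRCC2 replicate 1 stood apart from the other siRCC2 libraries on the second principal component (16.4% of the variance). Without it the 5 lower members stayed lower, with log2 fold changes from -1.62 (SUFU) to -1.10 (GLI1). Whether the 3 libraries of a group are separate cultures is not stated in the labels. The p-values then cover only library-to-library spread, possibly of technical origin.

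**Figure D1:**
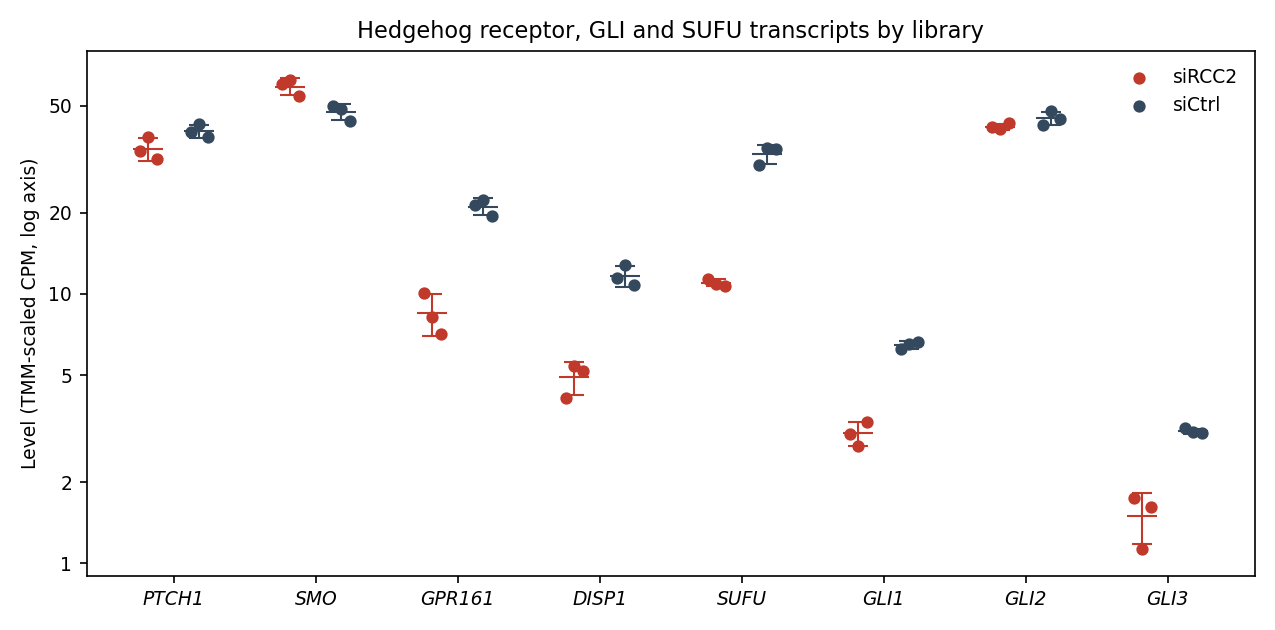
Level of each tested member in every library, in TMM-scaled CPM on a log axis, siRCC2 in red and siCtrl in dark blue, with the mean and SD of 3 libraries. SUFU, GPR161, DISP1, GLI1 and GLI3 sit lower in every siRCC2 library, SMO sits higher, and the points of PTCH1 and GLI2 overlap.

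At the membrane, SMO was the most abundant member. SMO, the 7-pass protein that carries the signal inward (ENSG00000128602, GRCh38 chromosome 7, 129188872 to 129213545), had 60.04, 62.6 and 54.2 CPM in siRCC2 replicates 1 to 3, against 49.9, 48.7 and 44.0 CPM in siCtrl replicates 1 to 3. Every siRCC2 library lay above every siCtrl library, by a small margin. The log2 fold change was 0.31 ± 0.09 (SE; edgeR adjusted p = 0.0322), with a 95% interval from 0.09 to 0.53. The call was lost when siCtrl replicate 1, 2 or 3 or siRCC2 replicate 1 or 2 was left out (adjusted p from 0.0561 to 0.127), with total counts as scaling (0.0558) and without a filter (0.0811).

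PTCH1, the ligand receptor and a target of GLI proteins (ENSG00000185920, chromosome 9, 95442980 to 95517057), had 33.9, 38.2 and 31.7 CPM in siRCC2, against 39.9, 42.6 and 38.1 CPM in siCtrl. The highest siRCC2 library just reached the lowest siCtrl library. The log2 fold change of -0.22 ± 0.10 (SE) did not pass (edgeR adjusted p = 0.128), with a 95% interval from -0.46 to 0.02, and it passed narrowly with total counts as scaling (adjusted p = 0.0499). A change of more than 0.46 on the log2 scale downward lies outside that interval, so a fall of the size seen for GLI1 does too.

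A PTCH1 promoter window is shown because it holds the sequence to which GLI proteins bind. In RefSeq promoter windows on GRCh38.p14, which run from 250 bases before to 50 after a gene start, the consensus GACCACCCA was searched on both strands. It occurs in 1 of the 5 PTCH1 windows, in 0 of the other 6 members with a window, and in 0.236% of all 35116 windows. None of the 21 listed GLI target genes with a window holds it. GLI1 and GLI3 have no window in the table. The PTCH1 match starts 172 bases before the start used for its window, on the opposite strand. That start lies inside the PTCH1 span given above and not at its 5′ end, 95517057. The match is within chr9:95509419-95509448, given here on the minus strand with the match in capitals.
PTCH1 promoter: gttgcctaccTGGGTGGTCtctctactttg

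HHIP, which encodes a membrane protein that traps ligand and is a further GLI target (ENSG00000164161, chromosome 4, 144646021 to 144745271), had no counts in any siRCC2 library, against 2, 2 and 3 counts in siCtrl replicates 1 to 3. Each siRCC2 count was below each siCtrl count, but all lie at or under the 3 counts that an observed 0 allows in 1 library. HHIP did not pass the filter on low counts, so whether the groups differ was not tested. Its antisense neighbour HHIP-AS1 had at most 4 counts in any library.

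DISP1, the transporter that frees lipid-modified Hedgehog from the cell that makes it (ENSG00000154309, chromosome 1, 222872271 to 223005995), had 68, 105 and 99 counts in siRCC2 replicates 1 to 3, or 4.11, 5.41 and 5.19 CPM. In siCtrl it had 232, 238 and 209 counts, or 11.5, 12.8 and 10.8 CPM. The groups were well apart, and siRCC2 replicate 1 was the lowest library. DISP1 fell to 0.420 of the siCtrl level (log2 fold change -1.25 ± 0.15 SE, 95% interval -1.61 to -0.89, edgeR adjusted p = 0.000826). Of the 50-base stretches of its longest transcript, 7.53% also occur in transcripts of other genes, and the overlapping same-strand RNA RP11-455P21.3 had at most 3 counts.

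GPR161, an orphan receptor that restrains the pathway from within the cilium by raising cyclic AMP (ENSG00000143147, chromosome 1, 168079543 to 168137667), had 10.1, 8.19 and 7.13 CPM in siRCC2, against 21.5, 22.4 and 19.4 CPM in siCtrl. The lowest siCtrl library was well above the highest siRCC2 library. GPR161 fell to 0.401 of the siCtrl level, with a log2 fold change of -1.32 (SE 0.15, 95% interval -1.67 to -0.96, edgeR adjusted p = 0.000683).

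SUFU, the cytoplasmic inhibitor that binds GLI proteins and keeps them from the nucleus (ENSG00000107882, chromosome 10, 102503987 to 102633535), was the member that fell most. Its counts were 188, 212 and 205 in siRCC2 replicates 1 to 3, which is 11.4, 10.9 and 10.7 CPM. In siCtrl replicates 1 to 3 they were 606, 645 and 668, which is 30.1, 34.8 and 34.4 CPM. The siRCC2 libraries were tightly grouped and far below the siCtrl libraries. SUFU fell to 0.333 of the siCtrl level (log2 fold change -1.59 ± 0.10 SE, 95% interval -1.83 to -1.34, edgeR adjusted p = 8.75e-05), and 374 of the 16536 tested genes had a lower log2 fold change.

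GLI1, the activator and output gene (ENSG00000111087, chromosome 12, 57460135 to 57472262), had 50, 53 and 64 counts in siRCC2 replicates 1 to 3, or 3.02, 2.73 and 3.36 CPM. In siCtrl replicates 1 to 3 it had 126, 121 and 129 counts, or 6.25, 6.52 and 6.65 CPM. The siCtrl libraries were nearly equal, and each was well above the highest siRCC2 library. GLI1 fell to 0.470 of the siCtrl level (log2 fold change -1.09 ± 0.14 SE, 95% interval -1.43 to -0.75, edgeR adjusted p = 0.00115). It shares 8 bases at its end with the antisense gene ARHGAP9, which had at most 12 counts.

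GLI2, the main activator of primary response in the mouse (ENSG00000074047, chromosome 2, 120735623 to 120992653), had 41.6, 40.9 and 43.0 CPM in siRCC2, against 42.5, 47.7 and 44.6 CPM in siCtrl. The groups overlapped. On the log2 scale the difference was -0.10 ± 0.08 (SE), with a 95% interval from -0.30 to 0.09, and did not pass (edgeR adjusted p = 0.348).

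GLI3, known mainly as the source of the repressor form (ENSG00000106571, chromosome 7, 41960950 to 42237870), had the fewest reads of the tested members. It had 29, 22 and 31 counts in siRCC2, against 64, 57 and 59 in siCtrl, that is 1.75, 1.13 and 1.63 CPM in siRCC2 and 3.18, 3.07 and 3.04 CPM in siCtrl. All siRCC2 libraries were below all siCtrl libraries, and siRCC2 replicate 2 was the lowest. GLI3 fell to 0.485 of the siCtrl level (log2 fold change -1.04 ± 0.21 SE, 95% interval -1.54 to -0.55, edgeR adjusted p = 0.00703).

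**Figure D2:**
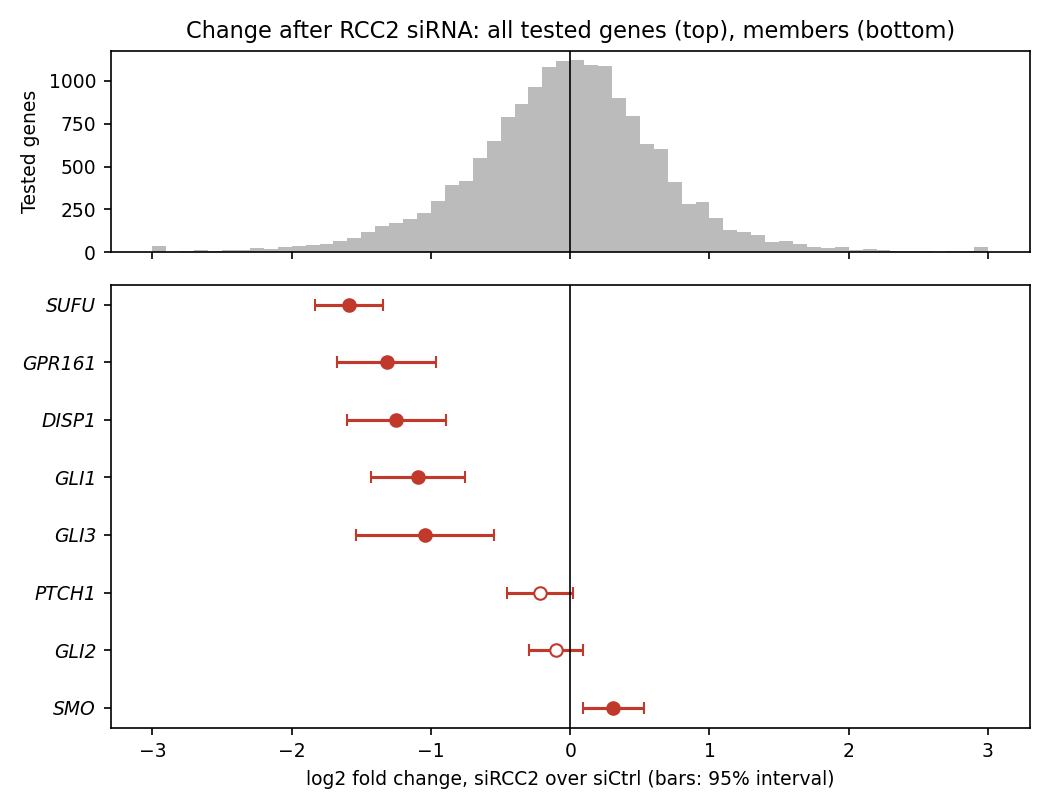
Top: number of tested genes by log2 fold change, siRCC2 over siCtrl, in bins of 0.1 with values beyond -3 and 3 placed in the end bins. Bottom: log2 fold change of the 8 tested members with 95% intervals; filled points passed an adjusted p of 0.05. The intervals of SUFU, GPR161, DISP1, GLI1 and GLI3 lie below 0, that of SMO above 0, and those of PTCH1 and GLI2 span 0.

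Ratios of counts within a library set the GLI genes side by side without any scaling between libraries. The log2 ratio of GLI1 to GLI2 counts was -3.78 ± 0.11 in siRCC2 and -2.79 ± 0.07 in siCtrl (SD, n = 3 each), a difference of -0.99. That of GLI3 to GLI2 was -4.80 ± 0.31 in siRCC2 and -3.85 ± 0.11 in siCtrl, a difference of -0.95. That of SUFU to GLI2 was -1.92 ± 0.07 in siRCC2 and -0.44 ± 0.06 in siCtrl, a difference of -1.48. The libraries of the groups did not overlap in any of these 3 ratios, and each exact two-sided permutation test gave p = 0.1 (0.1 when adjusted over the 3), the smallest that 3 libraries against 3 allow. GLI1, GLI3 and SUFU were already separated in level and GLI2 was not, so the ratios are no separate check of those falls. In level, 28.5% of all tested genes were lower without overlap. The share separated in a ratio to GLI2 was not examined.

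Set per length, as CPM per kilobase of annotated exon, GLI2 made up most GLI transcripts. Its share was 86.6%, 88.1% and 86.1% of the summed GLI level in siRCC2 replicates 1 to 3, against 76.5%, 78.0% and 76.6% in siCtrl replicates 1 to 3. The GLI1 share was 10.996% ± 0.732 in siRCC2 and 19.4% ± 0.699 in siCtrl, and the GLI3 share was 2.09% ± 0.413 in siRCC2 and 3.57% ± 0.240 in siCtrl (SD, n = 3 each). The summed GLI level was 6.56 ± 0.239 CPM per kilobase in siRCC2 and 7.95 ± 0.383 in siCtrl. SUFU per summed GLI transcript was 0.245 ± 0.0128 in siRCC2 and 0.606 ± 0.0268 in siCtrl. With the longest transcript as the length of each gene, that ratio was 0.307 ± 0.0162 in siRCC2 and 0.753 ± 0.0336 in siCtrl, and the GLI2 share was 85.8% and 75.3%. PTCH1 per SMO transcript was 0.152 ± 0.00592 in siRCC2 and 0.220 ± 0.0108 in siCtrl.

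**Figure D3:**
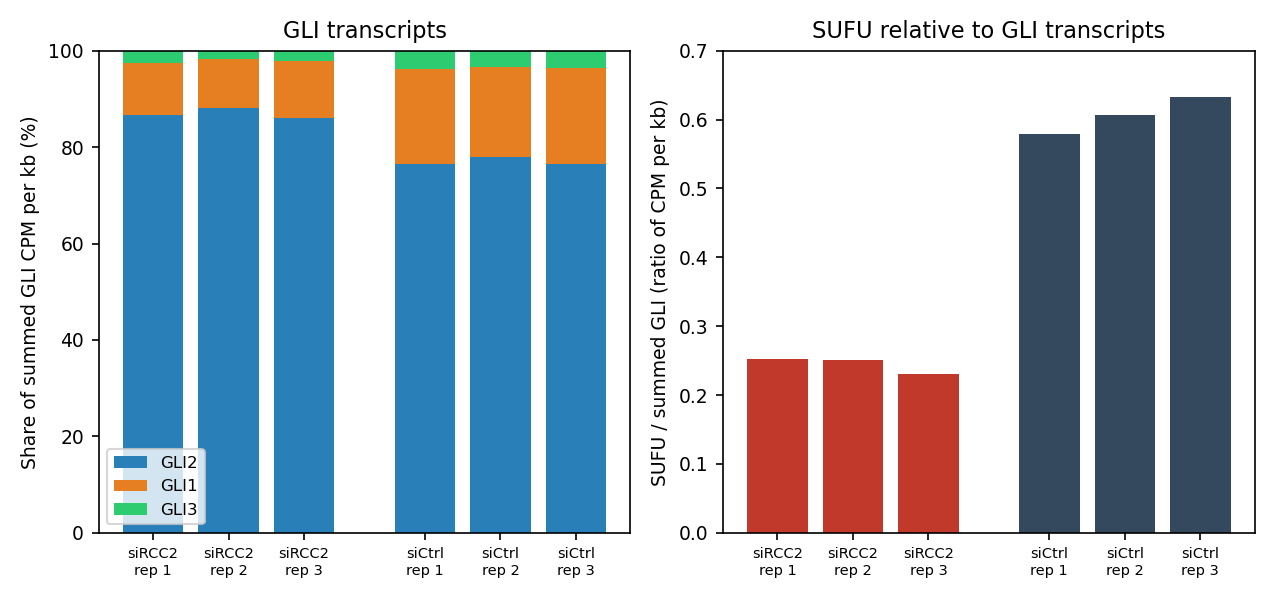
Left: share of GLI2 (blue), GLI1 (orange) and GLI3 (green) in the summed GLI level, in percent of CPM per kilobase of exon, for each library. Right: ratio of SUFU to the summed GLI level on the same scale, siRCC2 in red and siCtrl in dark blue; the siRCC2 libraries lie between 0.230 and 0.253 and the siCtrl libraries between 0.579 and 0.632.

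On the same scale of CPM per kilobase of exon, the order of levels in siRCC2 was SMO (13.7 ± 0.999), GLI2 (5.70 ± 0.144), PTCH1 (2.08 ± 0.199), SUFU (1.60 ± 0.0465), DISP1 (0.911 ± 0.129), GPR161 (0.755 ± 0.134), GLI1 (0.722 ± 0.0743) and GLI3 (0.137 ± 0.0299; SD, n = 3). The libraries of DISP1, GPR161 and GLI1 overlapped in siRCC2, so these 3 cannot be ordered there. In siCtrl the order was SMO (11.03 ± 0.725), GLI2 (6.12 ± 0.358), SUFU (4.82 ± 0.381), PTCH1 (2.42 ± 0.137), DISP1 (2.17 ± 0.194), GPR161 (1.88 ± 0.136), GLI1 (1.54 ± 0.0479) and GLI3 (0.283 ± 0.00648). PTCH1 and DISP1 overlapped in siCtrl. SUFU thus stood above PTCH1 in siCtrl and below it in siRCC2, and did so with the longest transcript as the length too. With that length GLI2 and SUFU overlapped in siCtrl (6.61 ± 0.387 and 6.62 ± 0.523), GPR161 overlapped DISP1 in both groups, and SMO remained the highest and GLI3 the lowest.

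Among 13092 tested genes with a symbol, no pseudogene annotation and a mean of at least 1 CPM, those whose log2 CPM ran most like SUFU over the 6 libraries were PLXND1, PRSS16 and ISCA2 (Pearson r = 0.99995, 0.9999 and 0.9997). The genes most like GLI1 were UBALD2, FBXW11 and DLG4 (r = 0.9987, 0.9984 and 0.9982), and those most like GLI3 were TRPV4, VLDLR-AS1 and MINDY1 (r from 0.9954 to 0.9963). These values describe 6 points that fall into 2 groups, and 2259, 2134 and 1579 genes exceeded an r of 0.9 with SUFU, GLI1 and GLI3. An r leaves out the size of the change, which differed. In the order named, log2 fold changes were -1.09, -0.76 and -1.07 for the genes like SUFU. They were -1.74, -1.93 and -0.25 for those like GLI1, and -2.46, -2.14 and -0.45 for those like GLI3. FBXW11, which encodes a substrate receptor of the ubiquitin ligase that marks GLI proteins for processing, is also on a list below.

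The 3′ UTRs of the members were read for a short sequence that went with lower levels across the transcriptome. Of 16283 7-base sequences ranked over the 3′ UTRs of 13158 tested genes, TCTGGAA had the lowest score (the difference in mean log2 fold change over its standard error), with a mean log2 fold change that differed by -0.24 from that of genes without it. The 2775 genes that hold it, 21.1% of those searched, had a median log2 fold change of -0.21, and 33.3% of them were called lower. The other 10383 had a median of 0.01, and 20.8% of them were called lower. The difference was present for long and for short 3′ UTRs, with medians of -0.19 with it and 0.01 without it at or above the median length of 1420 bases, and of -0.27 and 0.00 below it. TCTGGAA was picked by these same log2 fold changes. A lower level was thus built into the pick, and the shares called and the split by length are no separate check of it. Of the 7 members searched, SUFU and GPR161 hold the sequence and fell, PTCH1 holds it and did not pass, and GLI1, GLI2, GLI3 and SMO hold none in the transcript read. Long 3′ UTRs hold it more often. At or above the median length 2231 genes had it and 4351 did not, against 544 and 6032 below it. The 3′ UTRs of SUFU, GPR161 and PTCH1 are long, at 3380, 5988 and 9170 bases, and that of GLI3, without it, has 3380. DISP1, with no annotated 3′ UTR of at least 100 bases, and HHIP, which was not tested, were not searched. No siRNA sequence is given in the labels, and what part this sequence has in any member's level was not tested.

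Every site in the members searched is shown as 30 bases of GENCODE 29 transcripts on GRCh38, 5′ to 3′, with the 7 bases in capitals. The sites start at base 425 of the SUFU 3′ UTR (chr10:102630569-102630598, plus strand), at bases 3644 and 4306 of the GPR161 3′ UTR (chr1:168081869-168081898 and chr1:168081207-168081236, minus strand) and at base 8908 of the 9170 bases of the PTCH1 3′ UTR (chr9:95443656-95443685, minus strand).
SUFU: cccagctcatcTCTGGAAgcctttgctact
GPR161 first site: gctgtgtcctgTCTGGAAggaactgaggat
GPR161 second site: gctaagtagcaTCTGGAActtgagaagtct
PTCH1: aatccataatgTCTGGAActttgctgagac

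Around the members, 91 further pathway genes in 5 lists were examined, of which 74 were tested. Of these, 17 rose, 18 fell and 39 did not pass, with a median log2 fold change of -0.01, against 20.7% and 21.1% of all tested genes higher and lower.

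Ligand genes were scarce. SHH, which encodes the ligand Sonic hedgehog, had 6 to 10 counts in siRCC2 and 5 to 11 in siCtrl, DHH had at most 1, and IHH had none. Of 6 tested genes of ligand supply 0 rose and 2 fell, with a median of -0.71. They were DISP2, a relative of DISP1 (-0.91 ± 0.15 SE, edgeR adjusted p = 0.00263), and SCUBE1, of the family that helps release ligand (-1.88 ± 0.63). SCUBE1 rested on 2 to 12 counts in siRCC2 and 12 to 40 in siCtrl, and the list had only 1 fallen gene by limma-voom, with a filter of 1 CPM in 3 libraries, and without siRCC2 replicate 1 or 3 or siCtrl replicate 1 or 3. In those fits 15.3% to 22.9% of all tested genes were lower.

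Of 4 tested co-receptors and receptors beside the members 1 rose and 1 fell, with a median of -0.13. The co-receptor CDON fell to 19.1 ± 1.68 CPM in siRCC2, against 31.2 ± 0.879 CPM in siCtrl (-0.71 ± 0.10, adjusted p = 0.00161). Its partner BOC rose to 10.9 ± 0.262 CPM in siRCC2, against 8.14 ± 0.571 CPM in siCtrl (0.42 ± 0.11, adjusted p = 0.0226), a call lost without a filter and without siRCC2 replicate 2 or siCtrl replicate 2 or 3.

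Of 17 tested partners of SMO and genes of ciliary transport 2 rose, 5 fell and 10 did not pass, with a median of -0.38. IFT172, a subunit of the intraflagellar transport complex, fell by 1.18 on the log2 scale (SE 0.10). EVC2, which anchors SMO signalling at the base of the cilium, fell by 1.11 (SE 0.11), and its partner EVC did not pass (0.13 ± 0.07). The kinesin gene KIF3B fell by 1.04 (SE 0.13), and CSNK1G2, of a kinase family that phosphorylates SMO, rose by 0.83 (SE 0.07).

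Of 23 tested kinases, ligase subunits and other regulators of GLI proteins 4 rose, 7 fell and 12 did not pass, with a median of 0.10. FBXW11 fell to 33.5 ± 3.92 CPM in siRCC2, against 128 ± 7.94 CPM in siCtrl (-1.93 ± 0.11 SE, adjusted p = 5.73e-05), while its paralog BTRC rose (0.61 ± 0.09). The kinase genes HIPK2 (-1.01 ± 0.11) fell, and DYRK1B (1.77 ± 0.22) and CSNK1D (0.58 ± 0.08) rose. Without siCtrl replicate 3 the list had 4 fallen genes, and 15.3% of all tested genes were lower in that fit.

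Of 25 tested genes described as GLI targets, beside PTCH1 and GLI1, 10 rose, 3 fell and 12 did not pass, with a median of 0.36. CCND1, which encodes cyclin D1, fell to 286 ± 1.68 CPM in siRCC2, against 525 ± 30.1 CPM in siCtrl, and the cell cycle phosphatase gene CDC25B fell by 1.04 on the log2 scale (SE 0.10). SOX9 (1.51 ± 0.15) and SNAI1 (0.92 ± 0.10), both of which encode transcription factors, rose. Of the readout genes among the members, GLI1 fell, PTCH1 did not pass, and HHIP was too scarce to test.

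**Figure D4:**
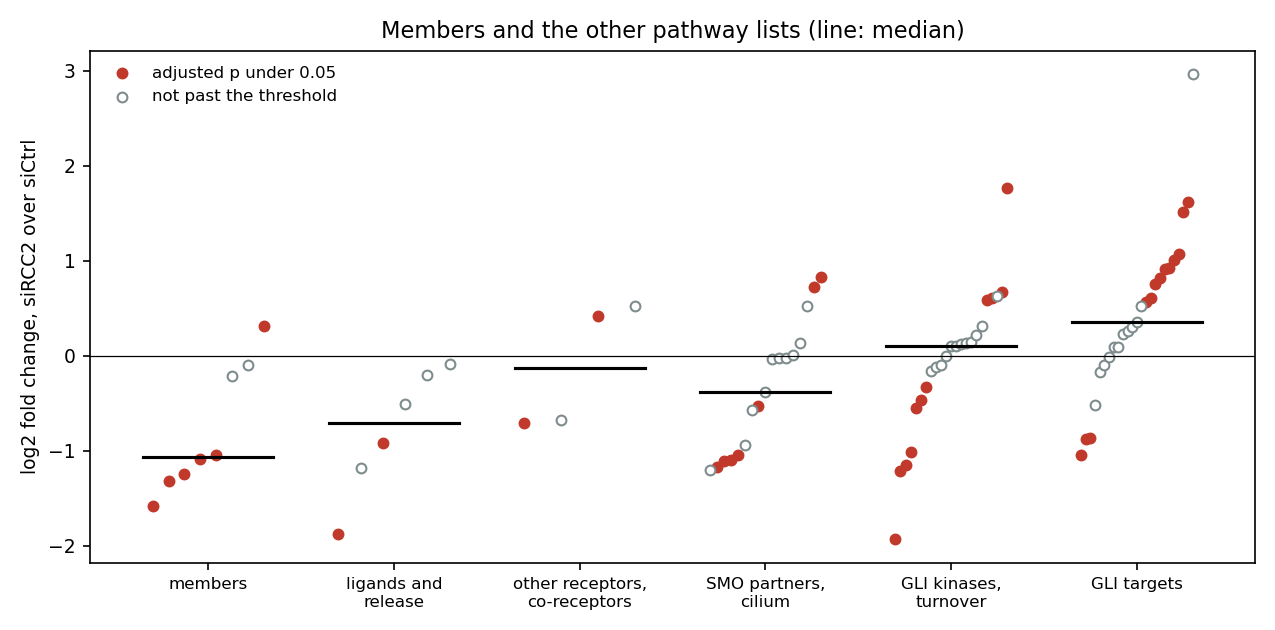
log2 fold change, siRCC2 over siCtrl, of each tested gene in the members and in the 5 other pathway lists; filled points passed an adjusted p of 0.05 and the bar is the median. Medians run from -1.07 for the members to 0.36 for the GLI targets, and both directions occur in each list but the ligand list.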

How the data were processed

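RNA from DU145 cells was sequenced in 6 libraries, 3 per group, grouped by sample title. Per the labels' protocols, total RNA went into an MGI library kit; strand use is not given there. Bowtie2, RSEM and DESeq2 on GRCh38 are listed in the submitters' processing notes. The authors deposited whole-number counts per gene, which may be rounded RSEM estimates. Totals were 17377191 to 19895431.

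The main test was that of edgeR 4.0.16 in R 4.3.3 (filterByExpr, TMM, quasi-likelihood F-test, no covariate, threshold 0.05 on Benjamini-Hochberg adjusted p over 16536 genes). SE is the log2 fold change over the square root of F; CPM values use TMM scaling. The test was also run on simulated counts, with far fewer changed genes than were called here and the same dispersion for every gene. That run checks the code and not the error rate in these data. Ratios used a pseudocount of 0.5 and the likeness ranking 0.1. Exon lengths, 3′ UTRs and shared 50-base stretches came from GENCODE 29, which holds 50111 of the gene identifiers.

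The members, lists and the 3′ UTR search were chosen with earlier results of these data known. The text names all 9 members, RCC2, cell markers, from each list up to 4 genes with the smallest p, and the 3 genes most like SUFU, GLI1 and GLI3; BTRC, EVC, SHH, DHH and IHH were named after their values were seen. A few list and marker genes are counted in their lists but not reported here by name. Alternatives were 3 scalings, DESeq2 1.42.0, limma-voom (limma 3.58.1), 2 filters, a replicate block, each library left out and an adjusted p under 0.01; the longest transcript as length, and ratios with each library left out, were added after the data were seen. Figures used Python 3.11.15 with matplotlib 3.10.9.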

Additional observations from a re-analysis of the deposited data

How the results depend on the processing

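The 5 falls (SUFU, GPR161, DISP1, GLI1 and GLI3) kept their direction and their call under all 14 alternatives to the test, with log2 fold changes from -1.66 to -0.86 and adjusted p from 1.03e-24 to 0.0284, and at an adjusted p under 0.01 all 5 were still called. GLI2 did not pass under any (adjusted p from 0.136 to 0.667). With total counts as scaling, PTCH1 passed (-0.29, adjusted p = 0.0499), SMO did not (0.24, adjusted p = 0.0558), so 6 members were lower and 0 higher (24.1% and 18% of all tested genes). SMO also missed without a filter (0.28, adjusted p = 0.0811), leaving 0 members higher there and at an adjusted p under 0.01. Of all tested genes 10.6% were higher without a filter and 12.5% at an adjusted p under 0.01. With each library left out, SMO ranged from 0.26 to 0.37 (adjusted p from 0.0213 to 0.127), and the number of members higher from 0 to 1. In those fits 14.9% to 21.6% of all tested genes were higher. Why the SMO call varied was not tested. The fit with the replicate number as a block changed no member's call (GLI3 adjusted p = 0.0203, SMO adjusted p = 0.0372, 5 members lower and 1 higher). In that fit 19.5% of all tested genes were lower and 18.6% higher. The replicate numbers did not pair the libraries (correlations of the deviations of same-numbered libraries of 0.06, -0.04 and 0.10). Over the 5 lists together the block gave 16 lower and 17 higher (the ligand list then had 1 lower), and all alternatives gave 13 to 19 lower and 14 to 20 higher. Over the same alternatives 12.4% to 24.1% of all tested genes were lower and 10.6% to 21.9% higher. The ratios of GLI1, GLI3 and SUFU to GLI2 kept their direction with a pseudocount of 1 and without each library, from -1.08 to -0.78 for GLI3. GLI3 and GLI1 rest on 22 to 129 reads per library, which limits their precision.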
